A study of Mus musculus with 4 samples.

Results

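The 39 Hox genes of the mouse lie in 4 clusters, Hoxa, Hoxb, Hoxc and Hoxd, and were taken as every row whose symbol was Hox, a cluster letter and a number. They made up 39 of the 23337 gene rows counted by total RNA sequencing in cardiac cushions, the tissue of the developing heart from which valves and septa form. The tissue came from C57BL/6 embryos at embryonic day 14.5 and was cut out under guidance of GFP from a Cre reporter. One group was Nfatc1Cre;Brg1F/F, called mutant here, with 2 libraries. Its floxed gene is Brg1, listed as Smarca4, which encodes the catalytic subunit of SWI/SNF complexes that remodel chromatin, and the Cre that deletes it is driven from the endocardial gene Nfatc1. The other was wildtype, described as littermates (2 libraries). The deletion acts in the endocardium and in cells that descend from it, so cushion cells of other origin, such as neural crest, keep the gene. How many embryos went into a library, and whether the wildtype embryos carried Cre or floxed alleles, is not given in the sources used here, and the spread that p-values measure here, that between libraries, may be in part technical.

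Hox genes encode homeodomain transcription factors that give cells along the body axis their positional identity. Genes at the same place in each cluster are paralogues and share a number, from 1 at the anterior end of expression to 13 at the posterior end, and the order on the chromosome follows the order of expression along the axis. In the mouse heart, anterior Hox genes are known from the second heart field progenitors of the outflow tract, where retinoic acid controls them, and from the cardiac neural crest. Hox clusters are also a classic target of the opposed Polycomb and trithorax systems, and SWI/SNF is the mammalian counterpart of a trithorax group complex.

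Reads in genes numbered 22426537 and 14104458 in mutant replicates 1 and 2, and 19218820 and 15790338 in wildtype replicates 1 and 2. Smarca4 measured 282 and 239 CPM (counts of the gene per 1000000 counts in genes, scaled between libraries by TMM, a trimmed mean of log ratios) in mutant and 251 and 231 CPM in wildtype libraries, a log2 fold change of 0.11 ± 0.14 (SE; edgeR adjusted p = 0.979). Counts over the whole gene do not separate the deleted part from the rest, so they do not check the genotype labels. Mutant replicate 2 had 13.3 CPM of Xist, against 2047 to 2659 CPM in the other libraries, so it differed in sex, and sex cannot be told apart from genotype within pair 2. All 8 endocardial, all 8 cushion mesenchyme and all 8 cardiomyocyte markers were detected in every library, where detected means at least 3 reads. The defining markers of the labelled tissue were thus present together with those of myocardium.

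Hox transcripts were rare in the cushions of both genotypes. All 39 genes together had 253 and 188 reads in mutant libraries, against 186 and 149 reads in wildtype libraries. Scaled for depth, these sums were 11.1 and 13.3 CPM in mutant and 9.91 and 9.40 CPM in wildtype libraries. Hoxb2, the most abundant, averaged 1.82 CPM over the 4 libraries, a level above that of 45.9% of all rows. Of the 39 genes, 10 were detected in all 4 libraries, or 25.6%, while 63.8% of all rows were. A further 11 were detected in 1 to 3 libraries, 9 had 1 or 2 reads at most in any library, and 9 had 0 reads in all 4. The floor of 3 reads corresponds to 0.132 and 0.212 CPM in mutant replicates 1 and 2 and to 0.160 and 0.189 CPM in wildtype replicates 1 and 2. A count of 0 allows somewhat more, up to 0.162 and 0.261 CPM in mutant and 0.196 and 0.233 CPM in wildtype libraries, by the upper bound of the 95% exact Poisson interval. These limits hold for counting error alone, as PCR copies of a molecule were not marked by identifiers. In a dissected tissue, few cells with much of a transcript and many cells with little cannot be told apart.

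**Figure D1:**
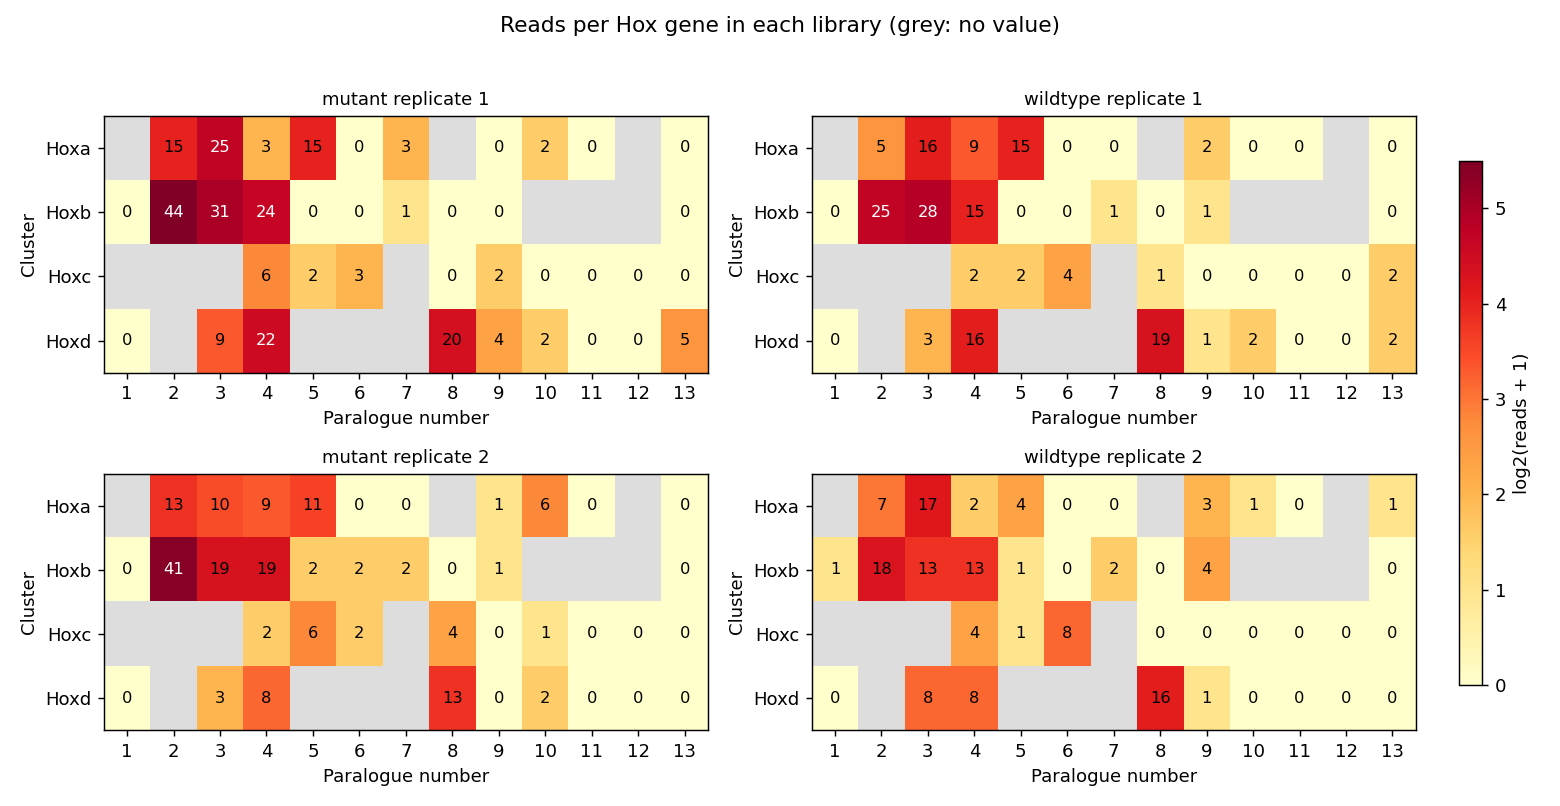
Reads of Hox genes by cluster (rows) and paralogue number (columns) in the 2 mutant libraries (left) and the 2 wildtype libraries (right); colour is log2 of reads plus 1, and grey marks places without a value. Over the libraries together, reads gather at numbers 2 to 5 of Hoxa, 2 to 4 of Hoxb and 3, 4 and 8 of Hoxd. Single libraries depart from this: Hoxa4 has 2 and Hoxa5 has 4 reads in wildtype replicate 2. Hoxd3 has 3 reads in mutant replicate 2 and in wildtype replicate 1. Numbers 11 and 12 have 0 reads.

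Levels differed with the position of a gene in its cluster. The 8 anterior genes, numbers 1 to 3, held 52.6% of all Hox reads, the 15 central genes, numbers 4 to 8, held 41.5%, and the 16 posterior genes, numbers 9 to 13, held 5.93%. The anterior sum was 6.12 and 6.85 CPM in mutant and 4.90 and 5.05 CPM in wildtype libraries. The central sum was 4.36 and 5.65 CPM in mutant and 4.47 and 3.72 CPM in wildtype libraries. The posterior sum was 0.660 and 0.777 CPM in mutant and 0.533 and 0.631 CPM in wildtype libraries. In each library the anterior sum was highest and the posterior sum lowest. Detection in all 4 libraries was met by 6 of 8 anterior, 4 of 15 central and 0 of 16 posterior genes.

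The clusters also differed. Hoxb (10 genes, chromosome 11, 96194316 to 96368256) held 39.7% of Hox reads, Hoxa (11 genes, chromosome 6) 32.5%, and Hoxd (9 genes, chromosome 2, 74668310 to 74765142) 21.1%. Hoxc (9 genes, chromosome 15, 102921103 to 103036852), which has no gene numbered 1 to 3, held 6.70%, and 0 of its genes were detected in all 4 libraries. Positions are those of GENCODE M21 on mm10.

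Within Hoxb, genes differed widely in their reads. Hoxb4, known in mouse for expanding blood stem cells when overexpressed, had 24 and 19 reads in mutant and 15 and 13 reads in wildtype libraries. Hoxb8, a central gene farther toward the posterior end, had 0 reads in all 4. Hoxb5, Hoxb6 and Hoxb7 lie between them, with 3, 2 and 6 reads over the 4 libraries, and Hoxb9 beyond Hoxb8 had 6. The promoters of Hoxb4 and Hoxb8 are shown as those of a detected and an unread gene of 1 cluster. They run from 250 bases before to 50 after the RefSeq start on GRCm38.p6, plus strand, with each CG dinucleotide in capitals.
Hoxb4, chr11:96318017-96318316: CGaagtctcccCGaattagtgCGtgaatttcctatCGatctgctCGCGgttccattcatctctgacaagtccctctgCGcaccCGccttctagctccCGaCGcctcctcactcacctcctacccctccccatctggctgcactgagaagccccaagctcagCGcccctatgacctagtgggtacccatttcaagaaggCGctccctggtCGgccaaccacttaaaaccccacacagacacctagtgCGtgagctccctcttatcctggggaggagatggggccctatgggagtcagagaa
Hoxb8, chr11:96281655-96281954: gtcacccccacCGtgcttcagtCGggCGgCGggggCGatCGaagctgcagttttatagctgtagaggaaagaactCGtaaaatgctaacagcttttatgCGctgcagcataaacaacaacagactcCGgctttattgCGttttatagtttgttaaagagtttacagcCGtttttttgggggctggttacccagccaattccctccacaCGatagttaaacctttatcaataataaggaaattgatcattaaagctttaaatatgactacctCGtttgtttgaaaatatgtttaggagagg
The Hoxb4 promoter holds 14 CG dinucleotides, a number reached by 36.3% of the 32851 RefSeq promoters of this length, and that of Hoxb8 holds 13, reached by 37.9%. RefSeq promoters were matched for 22 of the 39 genes, 24 in all, with a median of 14.5 CG dinucleotides against 7 over all promoters. The 7 promoters of genes detected in every library had 4 to 29 with a median of 14, and the 7 promoters of the 6 matched genes without a read had 4 to 29 with a median of 15. CG content thus did not separate these small sets. The other matched promoters were not part of this comparison, and 17 of the 39 genes, Hoxb2 and Hoxb3 among them, had no matched promoter.

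Among the anterior genes, Hoxb2, which acts below Hoxb1 in hindbrain segment identity (chromosome 11, 96350525 to 96354012), had the highest level. It had 44 and 41 reads in mutant and 25 and 18 reads in wildtype libraries. That gave 1.94 CPM (95% exact Poisson interval 1.41 to 2.60) and 2.90 CPM (2.08 to 3.93) in mutant libraries. In wildtype libraries it gave 1.33 CPM (0.862 to 1.97) and 1.14 CPM (0.673 to 1.80). Both mutant values lay above both wildtype values, although the intervals of mutant replicate 1 overlapped those of both wildtype libraries.

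Hoxa2, the gene that gives the second pharyngeal arch its identity (chromosome 6, 52162417 to 52164831), measured 0.660 and 0.918 CPM in mutant and 0.266 and 0.442 CPM in wildtype libraries. These values rest on 15 and 13 reads in mutant and 5 and 7 reads in wildtype libraries, and the groups did not overlap. Hoxa2 and Hoxb2 are the only paralogues numbered 2, and together they measured 2.60 and 3.81 CPM in mutant and 1.60 and 1.58 CPM in wildtype libraries. They made up 23.3% and 28.7% of Hox CPM in mutant, and 16.1% and 16.8% in wildtype libraries. This sum was picked after its values were seen and is given with no test.

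Hoxb1, a marker of second heart field progenitors at earlier stages, had 1 read in all, in wildtype replicate 2. Hoxd1 had 0 reads.

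Each gene numbered 3 was detected in every library. Hoxb3 (chromosome 11, 96323326 to 96347930) measured 1.36 and 1.34 CPM in mutant and 1.49 and 0.820 CPM in wildtype libraries. Hoxa3, which forms thymus, parathyroid and carotid body from the third arch and pouch (chromosome 6, 52169062 to 52213336), measured 1.10 and 0.706 CPM in mutant and 0.852 and 1.07 CPM in wildtype libraries. Hoxd3, which patterns the first vertebrae of the neck, measured 0.396 and 0.212 CPM in mutant and 0.160 and 0.505 CPM in wildtype libraries. For all 3 of these genes the mutant and wildtype ranges overlapped.

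Among the central genes, those numbered 4 had most reads. Hoxb4 (chromosome 11, 96318267 to 96321638) measured 1.06 and 1.34 CPM in mutant and 0.799 and 0.820 CPM in wildtype libraries, with no overlap. Hoxd4, a gene with a retinoic acid response element (chromosome 2, 74711929 to 74729160), measured 0.968 and 0.565 CPM in mutant and 0.852 and 0.505 CPM in wildtype libraries. Its values were higher in both libraries numbered 1, from 22 and 8 reads in mutant and 16 and 8 reads in wildtype libraries. The 95% exact Poisson intervals of all libraries overlapped, and an effect of replicate was not tested.
Hoxa4 measured 0.132 and 0.636 CPM in mutant and 0.479 and 0.126 CPM in wildtype libraries, from 3 and 9 reads in mutant and 9 and 2 reads in wildtype libraries. Hoxc4 had 6 and 2 reads in mutant and 2 and 4 reads in wildtype libraries.

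Hoxa5, known in mouse for lung and trachea formation (chromosome 6, 52201754 to 52204587), measured 0.660 and 0.777 CPM in mutant and 0.799 and 0.252 CPM in wildtype libraries, where wildtype replicate 2 stood lowest with 4 reads. Markers of lung and foregut were themselves near the floor: 3 of 9 were detected in all libraries, their sum was 3.26 to 3.95 CPM in mutant and 2.98 to 4.48 CPM in wildtype libraries, and Sftpc had 0 reads. Hoxb5 had 0 and 2 reads in mutant and 0 and 1 reads in wildtype libraries. Hoxc5 had 2 and 6 reads in mutant and 2 and 1 reads in wildtype libraries.

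Past number 5, Hoxd8 stood apart from its neighbours. Hoxd8 (chromosome 2, 74704615 to 74707933) measured 0.880 and 0.918 CPM in mutant and 1.01 and 1.01 CPM in wildtype libraries, the narrowest spread among the 12 genes of highest level, and both mutant values were lower. The other genes numbered 6 to 8 were near or under the floor. Hoxc6 was the highest of them, at 0.132 and 0.141 CPM in mutant and 0.213 and 0.505 CPM in wildtype libraries. Hoxc8 had 0 and 4 reads in mutant and 1 and 0 reads in wildtype libraries, Hoxb7 had 1 or 2 reads in each library, and Hoxb6 had 2 reads in all, both in mutant replicate 2. Hoxa6 and Hoxb8 had 0 reads.
Hoxa7 had 3 reads in mutant replicate 1 and 0 in the other libraries. The same library held all 3 reads of Mira, a non-coding gene that overlaps the end of Hoxa7 in RefSeq.

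**Figure D2:**
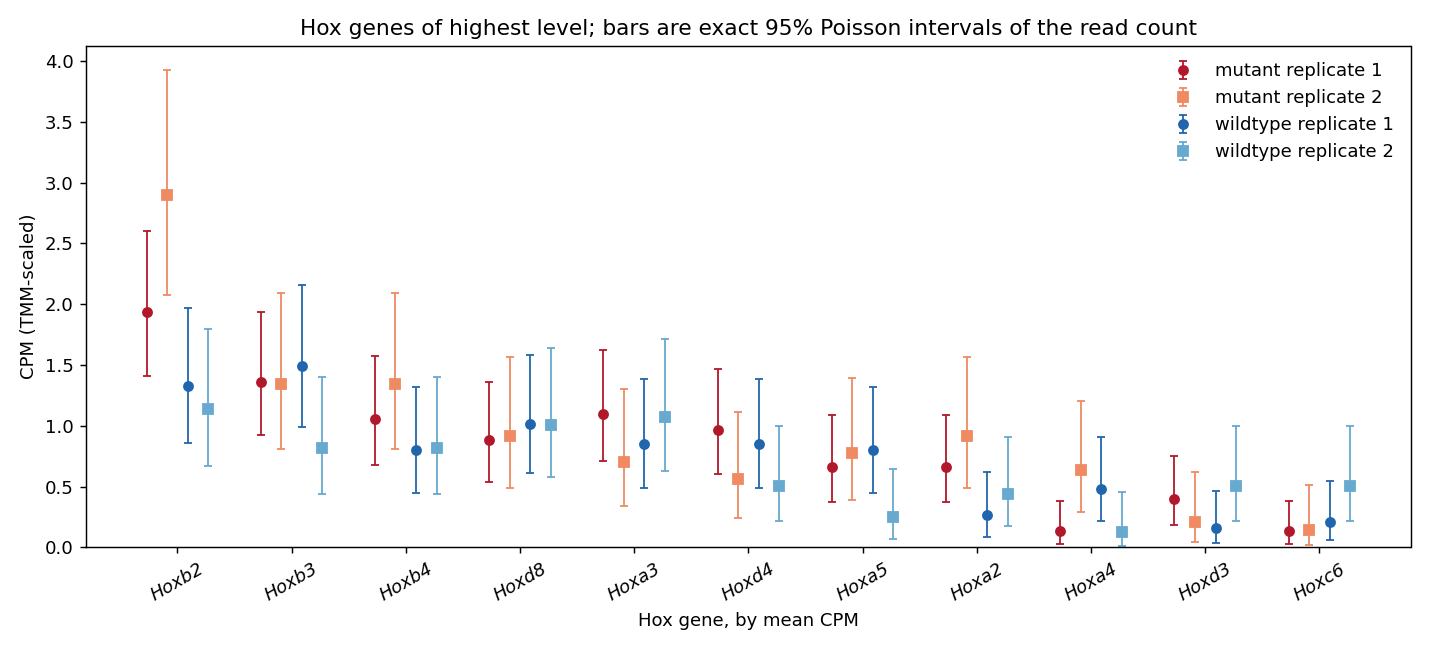
CPM of Hox genes of high mean level in each library (red and orange, mutant; blues, wildtype; circles, replicate 1; squares, replicate 2), with exact 95% Poisson intervals of the read count. Hoxb2 in mutant replicate 2 reaches 2.90 CPM, and most intervals of the other genes overlap between genotypes.

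The posterior genes, which pattern the lower trunk, limbs and urogenital tract, gave 15 and 11 reads in mutant and 10 and 10 reads in wildtype libraries over all 16 genes. Genes numbered 11 and 12, 5 in all, had 0 reads in every library. Hoxb13, known from prostate and tail, also had 0 reads. Of the genes numbered 9, Hoxa9, active in blood progenitors, had 0 and 1 reads in mutant and 2 and 3 reads in wildtype libraries. Hoxb9 had 0 and 1 reads in mutant and 1 and 4 reads in wildtype libraries. Hoxd9 had 4 and 0 reads in mutant and 1 and 1 reads in wildtype libraries, and Hoxc9 had 2 reads in all, both in mutant replicate 1.

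Hoxa10, needed in the uterus and also active in blood progenitors, had 2 and 6 reads in mutant and 0 and 1 reads in wildtype libraries. Hoxd10 had 2 and 2 reads in mutant and 2 and 0 reads in wildtype libraries. Hoxc10 had 1 read. Hoxd13, a gene of digits, had 5 and 0 reads in mutant and 2 and 0 reads in wildtype libraries. Hoxc13, a gene of hair and nail, had 2 reads in wildtype replicate 1, and Hoxa13 had 1 read in wildtype replicate 2. At 1 to 6 reads, differences among these genes were not detectable at this depth. Over the 27 genes outside the 12 of highest level, 18 had any read and the highest count in a library was 6.

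Levels of different genes were compared per kilobase of merged exons. Hoxb2 was highest at a mean of 0.523 CPM per kb over the 4 libraries, from 0.326 to 0.830. Hoxb4 measured 0.391, Hoxd8 0.348, Hoxa5 0.331 and Hoxa2 0.322 CPM per kb. The ranges of these 5 genes over the libraries overlapped, so their order among neighbours is not set by these data. Hoxb3 at 0.295 and Hoxd4 at 0.245 CPM per kb came next, and Hoxa3 at 0.155 CPM per kb ranked the tenth. With the longest coding transcript as length, a choice made after seeing the data, Hoxb2 stayed highest at 1.12 CPM per kb and Hoxa3 ranked the sixth at 0.360 CPM per kb. Across the 39 genes, level per kb and paralogue number had Spearman correlations of -0.54 and -0.59 in mutant and -0.47 and -0.64 in wildtype libraries, as a description of genes that share clusters and libraries. Between any 2 libraries, the CPM of the 39 genes correlated at 0.743 to 0.842 (Spearman), with the lowest value between the 2 mutant libraries.

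**Figure D3:**
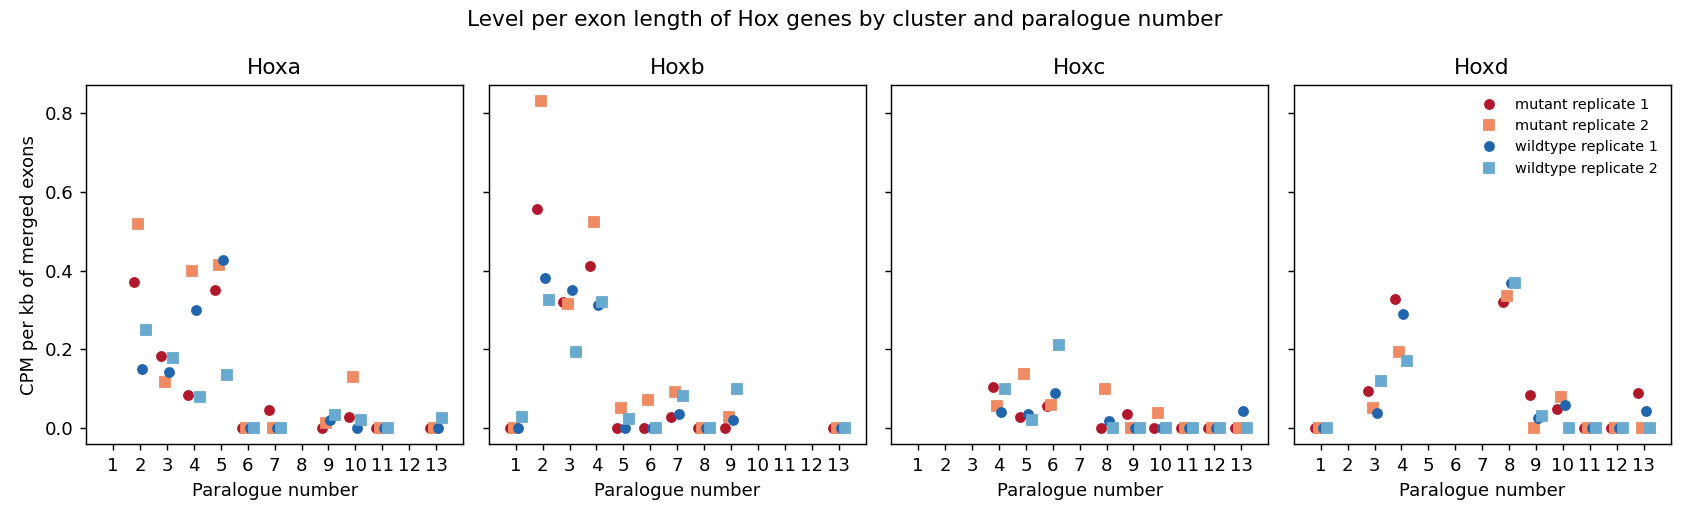
CPM per kilobase of merged exons for Hox genes against paralogue number, by cluster and library (red and orange, mutant; blues, wildtype). Over the libraries together, values are high at numbers 2 and 5 of Hoxa, 2 to 4 of Hoxb, and 4 and 8 of Hoxd. Hoxa3 is lower, at 0.117 to 0.183 CPM per kb, and Hoxa4 varies from 0.079 to 0.399 CPM per kb. Hoxc is low in most places, with Hoxc6 at 0.210 CPM per kb in wildtype replicate 2. Values approach 0 from number 9 on.

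Other transcripts inside the clusters had almost no reads. The table holds 12 further rows within the 4 spans, of which 5 are microRNA precursors of the miR-10 and miR-196 families. Mir10a lies beside Hoxb4 and Mir10b beside Hoxd4, and each had 1 read, in wildtype replicate 1. The 3 miR-196 precursors lie beside genes numbered 9 and 10, and they had 1 read in all. Small RNAs are poorly captured by such libraries, so these counts say little about the mature forms. The mature 5p sequences are shown from RefSeq on GRCm38.p6, with the seed, bases 2 to 8, in capitals, because each family shares a seed across clusters.
mmu-miR-10a-5p: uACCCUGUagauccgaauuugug
mmu-miR-10b-5p: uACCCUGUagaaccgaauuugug
mmu-miR-196a-5p: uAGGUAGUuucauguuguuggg
mmu-miR-196b-5p: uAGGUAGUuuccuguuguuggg
Hotair, the non-coding RNA of the Hoxc cluster, had 1 read in mutant replicate 1. Hoxa11as, antisense to Hoxa11, had 0 reads.

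The comparison of mutant and wildtype cushions asked whether deletion of Brg1 in the endocardial lineage changed transcript levels. Of the 39 Hox genes, 9 passed the low count filter and could be tested, and 30 could not. Over all genes, 9 of 14316 were called at an adjusted p under 0.05 by edgeR's quasi-likelihood test, or 0.0629%. Of the 9 tested Hox genes, 0 were called, with adjusted p from 0.807 to 0.995. DESeq2 also called 0 of them, where 0.426% of all genes were called, and limma-voom called 0, where 7 of all genes were called. With the replicate number as a block, edgeR called 0 as well, where 0.887% of all genes were called. At an unadjusted p under 0.05, 1 Hox gene was higher in mutant, Hoxb2, and 0 were lower, against 3.88% of all tested genes higher. Without a low count filter 30 Hox genes could be tested and 0 were called, where 1.18% of all genes were, and 0 were called with the replicate block, where 0.978% of all genes were.

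Hoxb2 averaged 2.42 ± 0.678 CPM in mutant and 1.23 ± 0.138 CPM in wildtype libraries (SD, n = 2 each), a log2 fold change of 0.94 ± 0.38 (SE) and an unadjusted p of 0.0361 that did not hold over all genes (edgeR adjusted p = 0.807). Its log2 fold change was between 0.65 and 1.22 with any 1 library left out. Hoxa2 averaged 0.789 ± 0.182 CPM in mutant and 0.354 ± 0.124 CPM in wildtype libraries, a log2 fold change of 1.13 ± 0.57 (edgeR adjusted p = 0.907). Hoxb4 averaged 1.20 ± 0.202 CPM in mutant and 0.810 ± 0.0153 CPM in wildtype libraries, a log2 fold change of 0.55 ± 0.43 (edgeR adjusted p = 0.962). In these 3 genes both mutant libraries lay above both wildtype libraries, which 17.0% of all tested genes showed. Hoxd8 had both mutant libraries below both wildtype libraries, which 16.3% of all tested genes showed, with a log2 fold change of -0.17 ± 0.43.

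A further 4 tested genes overlapped between genotypes. Their log2 fold changes were 0.39 ± 0.60 for Hoxa5, 0.21 ± 0.43 for Hoxb3, 0.20 ± 0.52 for Hoxd4 and -0.05 ± 0.46 for Hoxa3. Each of these 4 changed sign when some library was left out, and without wildtype replicate 2 all 4 did. The median over the 9 genes was 0.21, beside -0.0027 over all genes tested, with 6 positive and 3 negative; it was 0.64 without wildtype replicate 1 and -0.13 without wildtype replicate 2. Standard errors ran from 0.38 to 0.60 over these genes, against a median of 0.18 over all genes tested, and the difference in Hoxb2 did not pass the test at this precision.

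The authors' deposited table of their own edgeR comparison has 11507 rows, and 0 of the 39 Hox genes are among them. As CPM over all tallied reads, those outside genes included, the highest Hox value in any library was 0.892. In GENCODE M21, exons of 16 of the 39 genes overlap exons of another annotated gene, 6 of the 9 tested among them. Hoxb2 and Hoxb3 overlap the antisense gene Hoxb3os. The strand setting of the counting is not given in the sources used here, so reads of such antisense pairs cannot be told apart. Other overlaps lie on the same strand: Hoxd3 with Hoxd4, and Hoxa2 and Hoxa3 with Gm28308. There no strand setting would separate reads of the shared exons.

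Hox proteins bind DNA with cofactors of the TALE homeodomain family. All 9 cofactors were detected in every library and tested, with Pbx4 the lowest at 0.616 and 0.212 CPM in mutant and 0.373 and 0.820 CPM in wildtype libraries, and 0 were called by edgeR, with or without the block, or by DESeq2; 0 had an unadjusted p under 0.05. Meis2 measured 189 and 165 CPM in mutant and 165 and 172 CPM in wildtype libraries (log2 fold change 0.07 ± 0.13). The median log2 fold change of the cofactors was -0.07.

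Known regulators of Hox expression were present as well. Of 24 genes for Polycomb and trithorax proteins, retinoic acid enzymes and receptors, and hindbrain and tail bud factors, 20 were detected in all libraries, and 0 of the 20 tested were called by edgeR, with or without the block, or by DESeq2; 0 had an unadjusted p under 0.05. Their median log2 fold change was 0.07. Kmt2a, the trithorax methyltransferase counted under its older symbol Mll1, measured 291 and 211 CPM in mutant and 206 and 233 CPM in wildtype libraries. Suz12, a Polycomb subunit, measured 168 and 152 CPM in mutant and 151 and 158 CPM in wildtype libraries. The tail bud genes Cdx1 and Cdx4 had 0 reads and Cdx2 had 1 read, genes named after their counts were seen.

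Genes just outside the clusters covered a wide range of levels. Of 15 protein-coding neighbours, 14 had a row and 10 were detected in all libraries, and 0 of those 10 were called by edgeR, with or without the block, or by DESeq2; 0 had an unadjusted p under 0.05. Cbx5, encoding the heterochromatin protein HP1 alpha, measured 926 and 1035 CPM in mutant and 994 and 969 CPM in wildtype libraries. Hnrnpa3, an RNA-binding protein gene, measured 229 and 238 CPM in mutant and 199 and 254 CPM in wildtype libraries. The other 4, Skap1, Ttll6 and the homeobox genes Evx1 and Evx2, had 0 to 3 reads in each library and were named after their counts were seen.

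Markers of cells that could carry Hox transcripts into the dissection were measured beside these results. Of 8 neural crest, glial and neuronal markers, 4 were detected in all libraries, with sums of 18.4 to 21.5 CPM in mutant and 18.6 to 23.2 CPM in wildtype libraries; Foxd3 had 0 reads and Sox10 0 to 3. Leukocyte markers, 8 of 8 detected, summed to 124 and 138 CPM in mutant and 76.7 and 69.4 CPM in wildtype libraries. Of these, 1, Ptprc, the leukocyte phosphatase CD45, rose (29.4 and 26.1 CPM in mutant, 6.71 and 7.51 CPM in wildtype libraries; log2 fold change 1.97 ± 0.18, edgeR adjusted p = 0.0119). With the replicate block 2 leukocyte markers were called, Ptprc and the macrophage receptor gene Csf1r (34.9 and 42.9 CPM in mutant, 19.4 and 19.8 CPM in wildtype libraries; edgeR adjusted p = 0.110 without and 0.00980 with the block), and DESeq2 also called 2. Blood progenitor markers, 6 of 7 detected, summed to 257 and 276 CPM in mutant and 233 and 232 CPM in wildtype libraries. Of these, 1, Hemgn, a nuclear protein gene of blood progenitors and the erythroid lineage, rose (5.77 and 5.30 CPM in mutant, 0.586 and 0.252 CPM in wildtype libraries; log2 fold change 3.67 ± 0.41, edgeR adjusted p = 0.0252). Hepatocyte markers, 4 of 6 detected, summed to 9.11 and 17.2 CPM in mutant and 5.06 and 4.86 CPM in wildtype libraries. Of these, 0 were called by edgeR without the block and 2 with it, Alb (adjusted p = 0.0176) and Afp (adjusted p = 0.0275), both higher in mutant libraries. Ttr overlapped between genotypes (0.528 and 1.06 CPM in mutant, 0.905 and 0.694 CPM in wildtype libraries). So did Apoa1 (0.308 and 0.565 CPM in mutant, 0.373 and 0.631 CPM in wildtype libraries). Smooth muscle markers, 4 of 4 detected, summed to 1155 and 1245 CPM in mutant and 1095 and 1128 CPM in wildtype libraries. Thymus and pharyngeal epithelium markers, 1 of 5 detected, summed to 6.07 and 6.57 CPM in mutant and 5.86 and 4.04 CPM in wildtype libraries. The sums of these 5 lists were higher in the same libraries as Hoxb2, Hoxa2 and Hoxb4, and their part in those values was not tested. Not every member followed its sum. Of the 8 leukocyte markers, 6 were higher in mutant at an unadjusted edgeR p under 0.05, against 3.88% of all tested genes. Lyz2 was not among them and overlapped between genotypes (23.4 and 31.1 CPM in mutant, 28.7 and 20.2 CPM in wildtype libraries). Cnn1 of smooth muscle measured 159 and 178 CPM in mutant and 202 and 178 CPM in wildtype libraries. Krt8, which held most of the thymus and pharyngeal sum, measured 5.68 and 4.66 CPM in mutant and 5.64 and 3.66 CPM in wildtype libraries. Among blood progenitor markers, Cd34 measured 177 and 204 CPM in mutant and 177 and 179 CPM in wildtype libraries. Markers of the posterior body and limb, 1 of 7 detected, summed to 37.5 and 40.4 CPM in mutant and 47.9 and 54.8 CPM in wildtype libraries, a sum that rests on Tbx5 (845 and 563 reads in mutant, 894 and 865 reads in wildtype libraries), which the heart also expresses; the other 6 had 0 to 5 reads in a library. The sums of epicardial markers, 5 of 5 detected, were 116 and 143 CPM in mutant and 118 and 126 CPM in wildtype libraries.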

How the data were processed

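Total RNA of 4 cushion libraries was depleted of ribosomal RNA and made into ScriptSeq libraries, per the labels' protocols. The authors deposited raw read counts per gene symbol and a table of their edgeR comparison (log2 fold changes and log2 CPM, a likelihood ratio score, p-values and fold change ratios), per the file headers; only its membership was used here. Tools named in the submitters' processing notes are TopHat2 and Bowtie2, SAMtools, HTSeq and edgeR, with build mm10; their versions, the annotation and the strand setting were not stated. Summary rows of the counter were left out of every total and fit: reads outside features were 51.8% to 54.4% of tallied reads, reads with several alignments 16.1% to 17.0%, and ambiguous reads 0.187% to 0.210%.

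Counts were tested for genotype in 1 fit over all genes (edgeR 4.0.16, R 4.3.3) that used TMM scaling, filterByExpr, the quasi-likelihood F test and Benjamini-Hochberg adjustment over 14316 genes. Standard errors come from the log2 fold change and its F statistic. Alternatives used DESeq2 1.42.0 and limma 3.58.1 voom, other scalings and filters, the replicate block and each library left out. The fits were tested on simulated counts. Series and labels describe pairs of littermates with shared numbers. The main fit used genotype only, and the replicate block, which takes same-numbered libraries as pairs, was an alternative. Deviations of same-numbered libraries correlated at 0.144 across genes. Values in every library are given for the 12 Hox genes of highest mean CPM, except results that are not reported here. For other lists, the genes given are those past the threshold, or otherwise from the 2 of highest mean CPM. Further members, such as Pbx4, Cnn1 and Lyz2, were added outside this rule. Lists of other cell types are given by sums. Endocardial, cushion mesenchyme and cardiomyocyte markers are given by detection alone, without their test results. Hox genes and lists were chosen with earlier results of these data known.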

Additional observations from a re-analysis of the deposited data

How the results depend on the processing

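Of the 39 Hox genes 0 were called under each of 17 other settings, 1 of them chosen after seeing the data, the replicate block among them. The count over all genes, 9, became 127 with the replicate block, 69 with the block and a filter of CPM over 1 in 3 libraries, 30 with DESeq2 and the block, 61 with DESeq2, 171 with the likelihood ratio test, 236 without a filter, 195 without a filter and with the block, 24 at a threshold of 0.10, and 3 (without wildtype replicate 2) to 443 (without mutant replicate 2) with 1 library left out; the cause was not tested. The number of Hox genes tested, 9, became 2 with CPM over 1 in 3 libraries and 0 with CPM of at least 5 in 2 libraries, since fewer genes pass. With the CPM 5 filter the count of 0 called was thus fixed in advance. With the CPM 1 filter only those 2 genes could be called. The median log2 fold change of the tested genes was 0.58 with the CPM 1 filter, with or without the block, where it rests on those 2 genes, and -0.13 to 0.64 with 1 library left out. Signs changed in 6 refits of single genes, all with a library left out, and held in the other 106: Hoxa3 ranged from -0.44 to 0.20, Hoxa5 from -0.17 to 1.47, Hoxb3 from -0.14 to 0.72 and Hoxd4 from -0.28 to 0.64. Detection depended on the reads required. At 10 reads, 9 and 8 genes were detected in mutant replicates 1 and 2, against 8 and 6 in wildtype replicates 1 and 2. At 1 read, 21 and 23 were detected in mutant replicates 1 and 2, against 22 and 22 in wildtype replicates 1 and 2. At 3 reads these numbers were 16 and 14 in mutant and 12 and 14 in wildtype libraries. Depth limits these results: 30 of 39 genes had too few reads to pass the low count filter.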
